A study of Mus musculus and Rattus norvegicus with 28 samples.

Results

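The RNA of mouse left-ventricular cells collected as cardiomyocytes was compared between postnatal day 7 (P7) and postnatal day 1 (P1), at either end of the first week after birth. Every gene of the annotation was taken whose level reached 1 FPKM (fragments scaled to the length of the transcript and to the mapped fragments of the library) in 2 or more of the 8 mouse RNA-seq libraries, which left 13979 of 55450 genes. The comparison rested on 4 libraries, 2 per age, out of 28 samples in the series. Late fetal libraries from embryonic day 18.5 (E18.5) and libraries from postnatal day 3 (P3), 2 of each, shared the estimate of the spread and are given beside the 2 main ages.

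All animals were untreated wild-type C57BL/6 mice of both sexes, and the ages differed in nothing else that the labels or the methods state. Ventricles were cut up, kept in trypsin overnight in the cold and then digested with collagenase, and cells that attached to plastic during a short pre-plating were discarded as non-cardiomyocytes. The cells in suspension were used as the cardiomyocytes, so each library is a bulk preparation that can hold other cells of the heart. From staining for cardiac troponin T the study reports that its isolated cells were of high purity, also at P7. The study describes its replicates as biological. Neither the labels nor the methods say how many pups went into a library or whether the libraries of an age came from separate litters. The p-values below measure the spread between these libraries.

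Heart muscle cells change quickly around birth. In the mouse they are known to stop dividing within about the first week, to turn from glycolysis to the oxidation of fatty acids, and to exchange fetal forms of contractile proteins for adult ones. Cardiac fibroblasts, which make the collagen and elastic matrix of the ventricle, multiply over the same days.

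Of the 13979 genes, 1245 (8.91%) were called, which means that the Benjamini-Hochberg adjusted p of limma was below 0.05 and the change exceeded 1 on the log2 scale. At P7 482 of them (3.45%) were higher and 763 (5.46%) lower, and in all 1245 the P1 and P7 libraries did not overlap. The calls rest on the same values, so this is no separate support for them. The share of all genes tested without overlap was not computed. The median log2 fold change over all genes tested was -0.004, so the bulk of the genes was centred on no change. Higher genes were mostly of low level at P1, with a median of 3.96 FPKM that became 14.7 FPKM at P7, whereas lower genes had a median of 15 FPKM at P1 and 3.50 FPKM at P7. Changes of more than 3 on the log2 scale were seen in 66 lower and 14 higher genes. The genes called lower held 13.8 and 19.7% of the summed FPKM of the P1 libraries, and 5.11 and 3.73% of that of the P7 libraries.

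**Figure D1:**
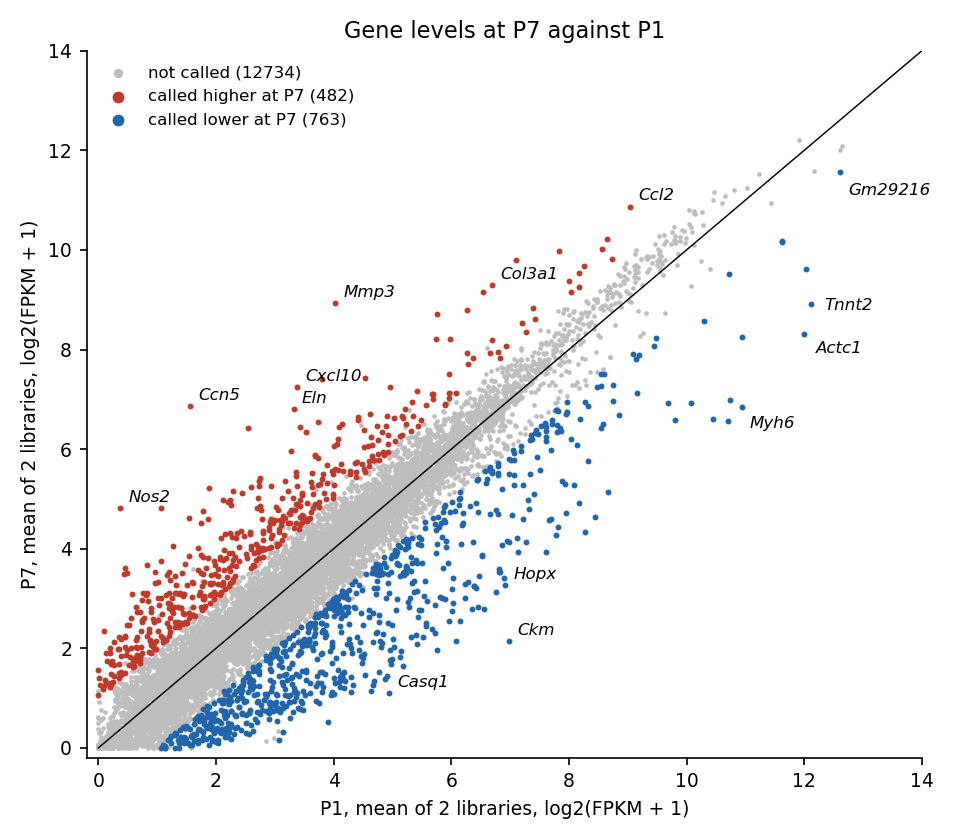
Mean level of each of the 13979 genes tested at P1 (x axis) and P7 (y axis), both as log2(FPKM + 1) over 2 libraries, with the 482 genes called higher in red, the 763 called lower in blue and the rest in grey. The red points lie mostly toward the low end of the P1 axis, and the blue points include the most abundant contractile genes at its right end.

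The libraries held 29300000 to 37500000 aligned reads, rounded values estimated from coverage, with 36000000 and 37500000 at P1 and 33300000 and 35900000 at P7. Between 12576 and 13035 genes reached 1 FPKM in each library. The 10 most abundant genes took 10.7 and 11.6% of the summed TPM, a measure of transcript share, at P1 and 7.74 and 6.69% at P7. All 37 genes of the mitochondrial chromosome were listed at 0 in all 8 libraries, so no mitochondrially encoded mRNA could be compared.

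Markers of the cell types that such a preparation can hold were examined before any other gene group, because cells that did not attach to plastic can be of several types. All 18 cardiomyocyte markers were lower at P7, with a median log2 fold change of -3.15, and their summed level went from 16961 and 26658 FPKM at P1 to 3037 and 1378 FPKM at P7. Of 14 fibroblast markers 8 were higher and none was lower, with a median of 1.38, and their summed level went from 1313 and 1524 FPKM to 3137 and 3882 FPKM. In the P7 libraries the summed fibroblast markers thus lay above the summed cardiomyocyte markers, by little in the first library, and in the P1 libraries far below them. Abundant cardiomyocyte markers were still well above 0, with Tnnt2 (cardiac troponin T) at 710 and 330 FPKM in the P7 libraries. Ryr2, a marker of lower level given below, was under 1 FPKM in the second P7 library. In bulk RNA a smaller number of cardiomyocytes and less of these RNAs per cardiomyocyte cannot be told apart. This applies to every fall and rise described below, and the part of cell composition in them was not tested.

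Other cell types moved less. Endothelial markers had a median log2 fold change of 0.45, and 1 of 13 was higher, the tight junction gene Cldn5 (1.41 and 1.20 against 7.10 and 8.14 FPKM). Pecam1, an adhesion molecule of endothelial cells, was at 43.6 and 37.9 FPKM at P1 and 55.6 and 47.8 FPKM at P7 and was not called (adjusted p = 0.43). By limma none of 10 tested macrophage and leukocyte markers was called (1 at an unadjusted p under 0.05, and none by limma-voom), and Lyz2 (lysozyme) was at 83.3 and 112 FPKM at P1 and 94.8 and 75.7 FPKM at P7. The leukocyte antigen Ptprc did not exceed 0.465 FPKM in the P1 and P7 libraries. Epicardial and mesothelial markers had a median of -0.50, and 7 of 10 had negative log2 fold changes. By limma 7 were at an unadjusted p under 0.05. The 1 called was the retinoic acid-synthesising enzyme Aldh1a2, which rose from 17.4 and 28.1 FPKM to 148 and 200 FPKM.

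Mural cell markers did not move together. Of 11 smooth muscle and pericyte markers 4 were higher, among them Pdgfrb (a growth factor receptor of pericytes and fibroblasts; 19.8 and 12.6 FPKM at P1, 65.3 and 81.9 FPKM at P7) and Notch3 (1.25 and 1.36 against 9.56 and 11.6 FPKM), with Myh11 and Rgs5. The 2 lower members were Cspg4, a proteoglycan of pericytes, and Abcc9, the latter a subunit of ATP-sensitive potassium channels that cardiomyocytes also use, at 7.21 and 15.3 FPKM at P1 and 2.19 and 1.63 FPKM at P7. With genes under a mean of 5 FPKM left out, 1 member of this list remained called higher. Erythroid genes did not exceed 15 FPKM in any P1 or P7 library. Of the sex-linked genes Xist fell from 14.2 and 16 FPKM to 6.29 and 6.53 FPKM, and the 4 genes of the Y chromosome had log2 fold changes of 0.68 to 0.87 and were not called by limma, whereas limma-voom called 2 of them higher.

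**Figure D2:**
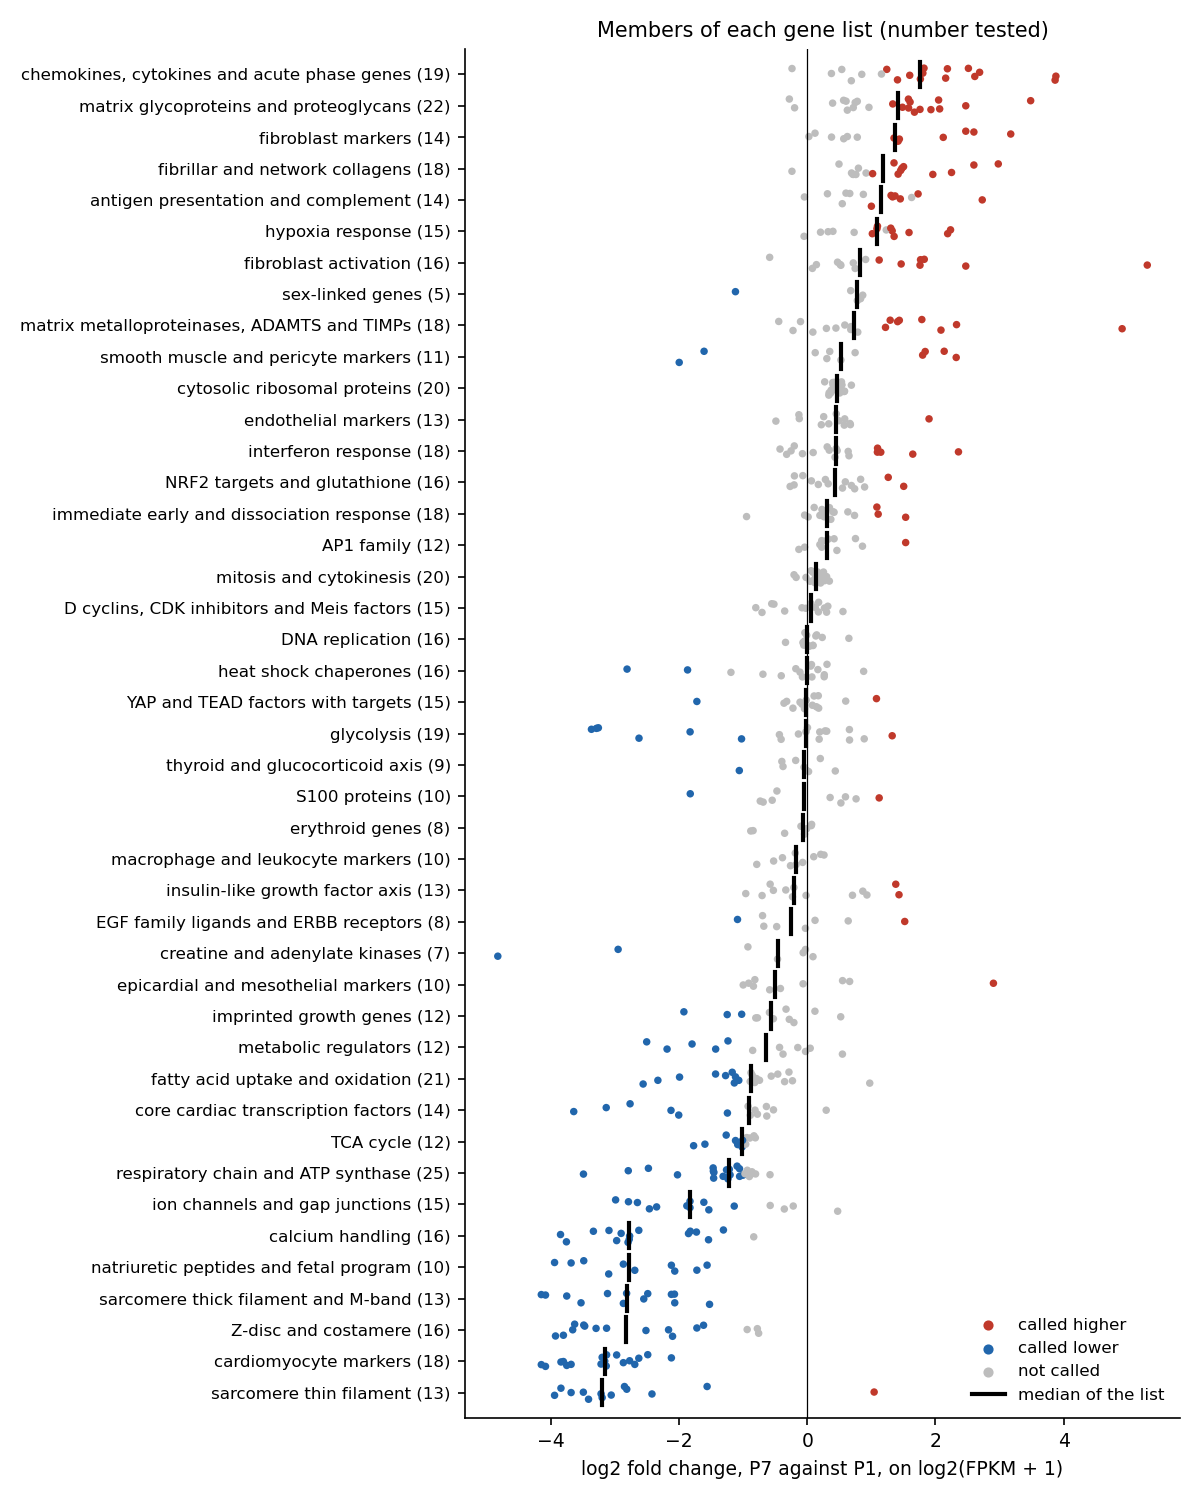
Log2 fold change at P7 against P1 of every tested member of each gene list (x axis, on log2(FPKM + 1)), with 1 point per gene coloured by its call and a black bar at the list's median. Contractile and calcium lists and those of oxidative metabolism lie mostly to the left of 0, matrix, fibroblast and cytokine lists mostly to the right, and the cell cycle and glycolysis lists have medians near 0.

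The contractile apparatus carried the largest falls in level. Of 13 tested genes of the thick filament and M-band all 13 were lower (median log2 fold change -2.82), and of 13 tested genes of the thin filament 12 were lower and 1 was higher (median -3.20). Myh6, the main myosin heavy chain of the adult mouse ventricle, was at 1256 and 3047 FPKM at P1 and at 190 and 68.5 FPKM at P7 (log2 fold change -4.09 ± 0.51, SE, adjusted p = 0.0016). The 2 P1 libraries of Myh6 were far apart, and both stood above the P7 pair. The ventricular light chains Myl3 (1404 and 1988 FPKM at P1, 189 and 45.7 FPKM at P7) and Myl2 (1385 and 2091 against 198 and 79.0 FPKM) had log2 fold changes of -4.15 ± 0.56 and -3.75 ± 0.40. In all 3 genes the second P7 library was the lower of the pair.

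Thin filament genes behaved in the same way. Tnnt2 fell from 3662 and 5428 FPKM to 710 and 330 FPKM (log2 fold change -3.20 ± 0.34, adjusted p = 0.0011), and in mean FPKM no called gene fell further. Actc1, cardiac alpha-actin, was at 3094 and 5347 FPKM at P1 and 457 and 217 FPKM at P7, and Tpm1, the alpha-tropomyosin gene, at 3539 and 4993 FPKM and then 965 and 635 FPKM. Tnnc1, troponin C, went from 1201 and 1616 FPKM to 173 and 53.0 FPKM. The single riser was Tpm2, the beta-tropomyosin gene that smooth muscle and other contractile cells also use, from 72.7 and 61.0 FPKM to 129 and 148 FPKM (log2 fold change 1.04 ± 0.14). It fell below the fold threshold with limma-voom (0.99), without the second P1 library (0.92) and without the second P7 library (0.95). Z-disc and costamere genes were lower in 13 of 16 cases (median -2.82). Synpo2l, an actin-associated Z-disc protein, fell from 56.5 and 78.7 FPKM to 5.76 and 1.92 FPKM, and Actn2 (alpha-actinin) and Smpx had log2 fold changes of -3.81 and -3.66. Nexn (nexilin), a filament-binding protein of the Z-disc, went from 97.8 and 123 FPKM to 28.4 and 21.6 FPKM. The 3 members that were not called were the small heat shock protein Cryab, Flnc and Xirp2, with log2 fold changes of -0.94, -0.76 and -0.78.

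Calcium handling and excitation genes fell with the sarcomere. Among 16 calcium handling genes 15 were lower (median -2.77). Atp2a2, the calcium pump of the sarcoplasmic reticulum, was at 609 and 1117 FPKM at P1 and 158 and 91.2 FPKM at P7, and the release channel Ryr2 at 13.1 and 22.3 FPKM and then 1.91 and 0.822 FPKM. Casq1, a calsequestrin, was among the 15 largest falls (16.5 and 53.2 against 1.26 and 1.02 FPKM, log2 fold change -3.85 ± 0.52), as was Srl (sarcalumenin; 68.0 and 127 against 9.47 and 3.59 FPKM). Trim72, a muscle protein of membrane repair, fell from 66.0 and 104 FPKM to 13.6 and 5.17 FPKM. Of 15 tested genes of ion channels and gap junctions, which carry the heartbeat from cell to cell, 11 were lower (median -1.83), including the main ventricular connexin Gja1 at 198 and 347 FPKM and then 68.3 and 78.2 FPKM.

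The genes usually grouped as the fetal program largely repeat the lists above, with only Nppa and Nppb outside the filament and Z-disc lists. All 10 were lower, with a median of -2.78. Nppa, atrial natriuretic peptide, went from 1719 and 2249 FPKM to 388 and 238 FPKM, and Tnni1, the slow skeletal and fetal troponin I, from 251 and 380 FPKM to 28.5 and 12.7 FPKM (log2 fold change -3.94 ± 0.35, adjusted p = 0.00084). Thus genes of the fetal and of the adult contractile set were lower together. Transcription factors of the heart were mixed, with 6 of 14 lower (median -0.91). Hopx, a homeodomain cofactor without DNA binding of its own, had the largest fall (102 and 141 against 12.8 and 5.77 FPKM, log2 fold change -3.64 ± 0.33), followed by Nkx2-5 (68.6 and 100 against 13.6 and 5.23 FPKM). Gata4, which cardiac fibroblasts also express, was at 34.5 and 39.9 FPKM at P1 and 50.1 and 41.8 FPKM at P7 and was not called (adjusted p = 0.65). Of the MEF2 factors Mef2c was lower (3.04 and 4.26 against 0.852 and 1.04 FPKM), while Mef2a and Mef2d, with log2 fold changes of -0.92 and -0.64, passed on the adjusted p and missed the fold threshold.

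Ratios between related genes within a library show which forms changed more than their partners, on a scale that is per length. They are a description of pairs chosen after their values were seen. Tnni3, the adult troponin I, made up 75.2 and 73.2% of Tnni3 plus Tnni1 at P1 and 84.2 and 82.2% at P7, after 52.2 and 53.3% at E18.5. Myh6 made up 97.2 and 97.6% of Myh6 plus Myh7 at P1 and 96.2 and 92.9% at P7, after 43.4 and 42.7% at E18.5. From P1 to P7 the adult form thus gained share in the troponin I pair and lost share in the myosin pair. Myl2, the ventricular light chain, went from 80.7 and 83.2% to 66.2 and 52.5% of Myl2 plus its atrial counterpart Myl7.

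Muscle forms of metabolic enzymes lost share to forms that most tissues use. Pgam2, the muscle phosphoglycerate mutase, made up 46.3 and 52.2% of Pgam2 plus Pgam1 at P1 and 9.20 and 3.07% at P7. Eno3, the muscle enolase, went from 26.5 and 31.7% to 3.72 and 1.74% of Eno3 plus Eno1, and Pfkm from 59.7 and 54.2% to 18.5 and 13.6% of Pfkm plus Pfkl. The insulin-responsive glucose transporter Slc2a4 made up 35.0 and 40.0% of Slc2a4 plus Slc2a1 and then 3.05 and 0.837%. In the creatine kinases Ckm took 54.3 and 65.2% of Ckm plus Ckb at P1 and 7.60 and 1.55% at P7. Cpt1b, the muscle form of the enzyme that admits fatty acids to mitochondria, went from 66.8 and 78.4% to 27.2 and 12.6% of Cpt1b plus Cpt1a. In each of these 6 pairs, as in every other pair compared, the P1 and P7 libraries did not overlap. Since the pairs were chosen with their values known, this is no separate support. The share without overlap among unselected pairs was not computed.

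**Figure D3:**
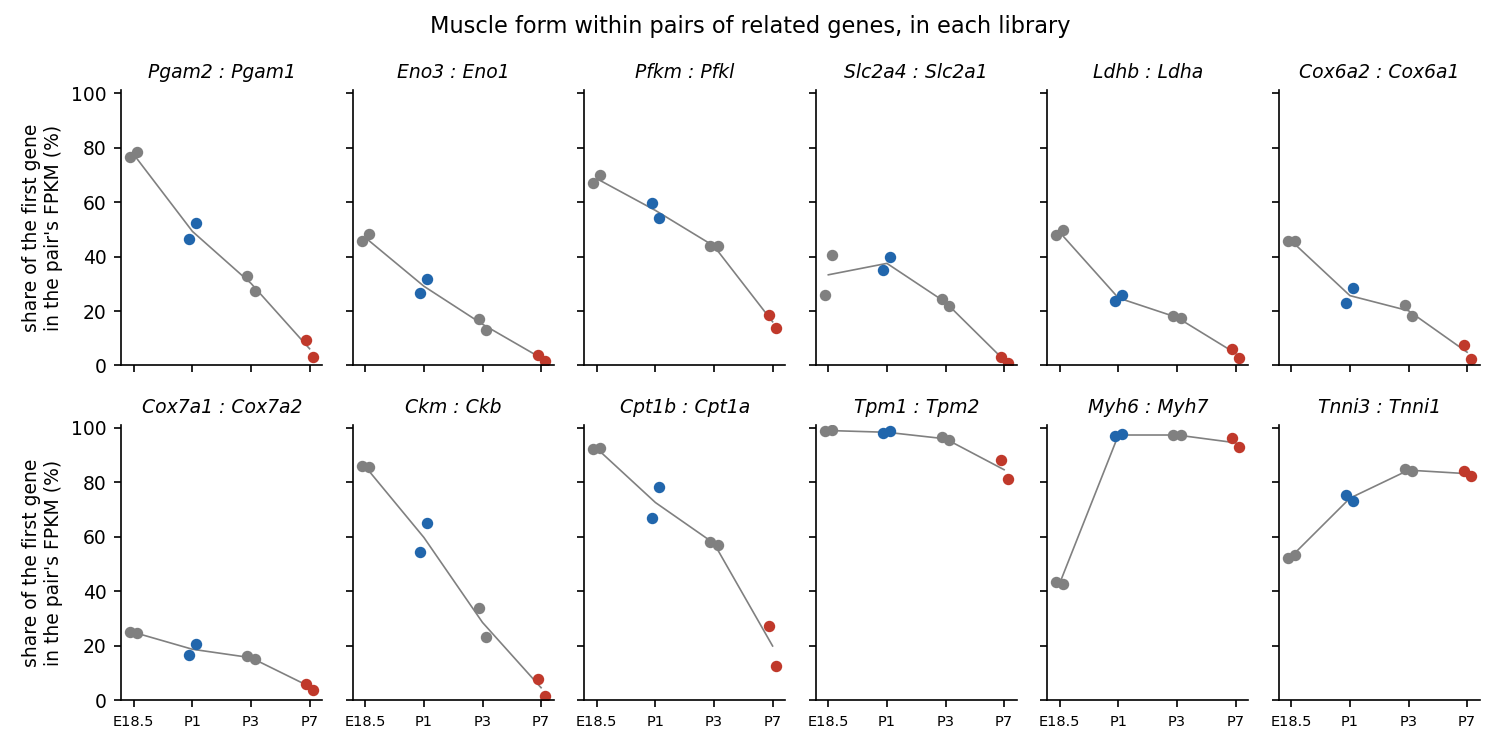
Share of the first-named gene in the summed FPKM of each of 12 pairs of related genes (y axis, percent) in every library, by age (x axis). P1 is in blue, P7 in red and the other ages in grey, with a line through the means. The first gene is the muscle or adult form except in the pairs of Ldhb with Ldha and Tpm1 with Tpm2. The share falls from P1 to P7 in every pair except that of Tnni3 and Tnni1.

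Glycolysis as a list of 19 genes had a median of -0.02, with 6 lower and 1 higher. Its most abundant members were not called, as Gapdh, which was at 1003 and 1247 FPKM at P1 and 1077 and 1130 FPKM at P7, and Aldoa, with a log2 fold change of -0.14 (adjusted p = 0.64). The fallers were the muscle forms Pgam2 (203 and 247 against 33.3 and 12.8 FPKM) and Eno3 (242 and 344 against 41.1 and 20.7 FPKM), with Slc2a4, Ldhb, Pfkm and Pfkp, of which Pfkp lost its call without the second P1 library and without either P7 library. Pfkm, muscle phosphofructokinase, went from 42.1 and 66.0 FPKM to 15.5 and 12.9 FPKM (log2 fold change -1.83 ± 0.24, adjusted p = 0.0020). The riser was Slc2a1, the basal glucose transporter, from 42.7 and 59.9 FPKM to 118 and 140 FPKM (log2 fold change 1.33 ± 0.20).

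Oxidative metabolism was lower, and by less than the sarcomere. Of 25 respiratory chain and ATP synthase genes 18 were lower (median -1.22), of 12 genes of the tricarboxylic acid cycle 7 (median -1.01) and of 21 genes of fatty acid uptake and oxidation 9 (median -0.88), with none higher in the 3 lists by limma. Cpt1a, the one fatty acid gene with a higher level at P7, was called higher with limma-voom, with TPM, with a pseudocount of 0.1 and without the first P1 library. Atp5b, a subunit of the ATP synthase, was at 1527 and 1857 FPKM at P1 and 833 and 640 FPKM at P7. Cox6a2, the striated muscle form of a cytochrome oxidase subunit, fell from 180 and 263 FPKM to 36.3 and 9.12 FPKM, whereas its ubiquitous form Cox6a1 was at 606 and 663 FPKM and then 447 and 401 FPKM and was not called. Fabp3, the fatty acid-binding protein of heart, had the largest fall among the fatty acid genes, from 300 and 339 FPKM to 83.8 and 33.7 FPKM (log2 fold change -2.56 ± 0.35). Ckm, the muscle creatine kinase, had the largest fall of any called gene, from 96.5 and 162 FPKM to 6.89 and 1.5 FPKM (log2 fold change -4.83 ± 0.50, adjusted p = 0.0010). Among 7 creatine and adenylate kinase genes only Ckm and its mitochondrial partner Ckmt2 were called. Regulators of mitochondrial genes were lower in 5 of 12 cases, led by Perm1 (8.49 and 14.5 against 1.69 and 0.697 FPKM) and the coactivator Ppargc1a (4.16 and 7.19 against 0.666 and 0.224 FPKM), with Esrrg, Ppargc1b and Esrra.

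The counts for these metabolic lists rested in part on single libraries. Without the second P7 library the fatty acid list had 4 lower genes and the tricarboxylic acid list 4, and without the second P1 library the latter had 3. The median of each list stayed below 0 in every alternative, between -1.04 and -0.70 for the fatty acid list and between -1.11 and -0.93 for the tricarboxylic acid list. In the list of regulators 2 genes were lower once genes under a mean of 5 FPKM were left out.

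With all libraries no cell cycle gene was called in either direction. By limma none of 16 genes of DNA replication, 20 of mitosis and cytokinesis and 15 D cyclins, CDK inhibitors and Meis factors was called, with medians of -0.01, 0.14 and 0.06 beside -0.004 for all genes. At an unadjusted p under 0.05 there were 1, 0 and 5 such genes, and limma-voom called none. Without the first P1 library 1 replication gene was higher, and without the second P1 library 1 gene of the list of D cyclins was lower. Mki67, a marker of cycling cells, was at 16.4 and 15.2 FPKM at P1 and 16 and 18.5 FPKM at P7 (log2 fold change 0.12 ± 0.15, adjusted p = 0.67). Mcm2, of the replicative helicase, was at 39.8 and 29.2 FPKM and then 35.3 and 31.3 FPKM, and the CDK inhibitor Cdkn1a at 132 and 109 FPKM and then 165 and 190 FPKM (adjusted p = 0.074). Stmn1, a regulator of microtubules that dividing cells express highly, was at 102 and 85.0 FPKM and 97.6 and 85.5 FPKM, and Hmgb2, a chromatin protein of cycling cells, at 76.0 and 64.4 FPKM and 70.8 and 67.7 FPKM. Levels at both ages thus overlapped for Stmn1 and Hmgb2. Since these are bulk levels, the cell type that carried the cell cycle transcripts at each age was not measured.

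Imprinted growth genes were lower in 3 of 12 cases, Mest (169 and 196 against 62.2 and 35.6 FPKM), Peg3 and Plagl1. The fetal growth factor Igf2, at 22.5 and 38.5 FPKM and then 14.6 and 27.5 FPKM, overlapped between the ages. In the insulin-like growth factor axis the binding proteins Igfbp3 and Igfbp7 rose, the latter from 283 and 230 FPKM to 643 and 690 FPKM, and Irs2, an adaptor of the insulin receptor, was at 6.28 and 7.75 FPKM and 5.82 and 5.79 FPKM (adjusted p = 0.54). By limma none of 20 ribosomal protein genes was called (18 at an unadjusted p under 0.05, and none by limma-voom), but all 20 had positive log2 fold changes between 0.27 and 0.69. Of the epidermal growth factor family, the ligand Ereg (epiregulin) rose from 13.9 and 4.13 FPKM to 20.7 and 28.1 FPKM (log2 fold change 1.52 ± 0.43, adjusted p = 0.042) and Nrg1 (neuregulin), which signals to cardiomyocytes, fell from 20.5 and 14.7 FPKM to 11 and 5.22 FPKM. Both calls were lost with no expression filter, with P1 and P7 alone, without the second P1 library and without the second P7 library, that of Ereg also with a pseudocount of 0.1 and without the first P7 library, and that of Nrg1 also without the first P1 library. Without the second P7 library the calls of Igfbp3 and Plagl1 were lost as well, and that of Plagl1 also without the second P1 library.

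Many genes of the extracellular matrix were higher. Of 18 collagen genes 10 were higher and none was lower (median 1.19), and of 22 matrix glycoproteins and proteoglycans 12 were higher and none was lower (median 1.41). Col3a1, a fibrillar collagen of compliant tissue, rose from 84.0 and 126 FPKM to 523 and 755 FPKM (log2 fold change 2.60 ± 0.22, adjusted p = 0.00078). Col1a1, the major fibrillar collagen, went from 258 and 357 FPKM to 720 and 917 FPKM, and Col14a1, a fibril-associated collagen, from 1.65 and 3.46 FPKM to 21.8 and 31.4 FPKM. The basement membrane collagens Col4a1 and Col4a2 had log2 fold changes of 0.69 and 0.50 and were not called. The tested chains of the fibrillar types I, III and V were all called. Elastic fibre genes rose with them. Eln (elastin) was at 10.3 and 7.80 FPKM at P1 and 92.4 and 133 FPKM at P7 (log2 fold change 3.49 ± 0.29), and the fibre-associated Mfap4 at 0.492 and 0.245 FPKM and then 9.65 and 13.2 FPKM. Bgn, a small proteoglycan, rose from 428 and 374 FPKM to 1065 and 1350 FPKM, and the crosslinking enzymes Lox, Loxl1 and Loxl2 had log2 fold changes of 1.76, 1.67 and 1.60. Dcn (decorin), a proteoglycan of fibroblasts, was at 393 and 412 FPKM and then 626 and 617 FPKM, which passed on the adjusted p (0.0052) and fell short of the fold threshold at 0.63, as did Lum (lumican) at 0.78. Among the matrix genes Tnc, Thbs1, Spp1, Fmod and Vcan had an adjusted p above 0.05.

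Proteases of the matrix and genes of fibroblast activation were led by 2 genes with the largest rises of all. Ccn5 (chr2:163820861-163833146, plus strand, GRCm38), a secreted matricellular protein of the CCN family, was at 2.69 and 1.32 FPKM at P1, 10.2 and 11.1 FPKM at P3 and 97.7 and 135 FPKM at P7 (log2 fold change 5.31 ± 0.24, adjusted p = 0.00014). Mmp3 (chr9:7445822-7455975, plus strand), a secreted metalloproteinase, went from 18.6 and 12.5 FPKM through 58.8 and 62.7 FPKM to 403 and 594 FPKM (log2 fold change 4.91 ± 0.23, adjusted p = 0.00014). The CCN relatives of Ccn5 did not follow it, as Ccn1 and Ccn2, both targets of mechanical signalling, had log2 fold changes of 0.14 and 0.08. Of 18 tested metalloproteinases, ADAMTS proteases and their inhibitors 8 were higher (median 0.74), including Adamts2, which trims procollagen, and the inhibitor Timp1 (181 and 153 against 417 and 492 FPKM). Adamts1 and Timp3, at log2 fold changes of 0.68 and -0.44, were not called. Of 16 fibroblast activation genes 7 were higher (median 0.83). Postn (periostin), a matricellular protein of activated fibroblasts, rose from 66.5 and 41.0 FPKM to 240 and 361 FPKM, while Acta2 (smooth muscle actin) was at 723 and 755 FPKM and then 1161 and 1326 FPKM with a log2 fold change of 0.75.

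**Figure D4:**
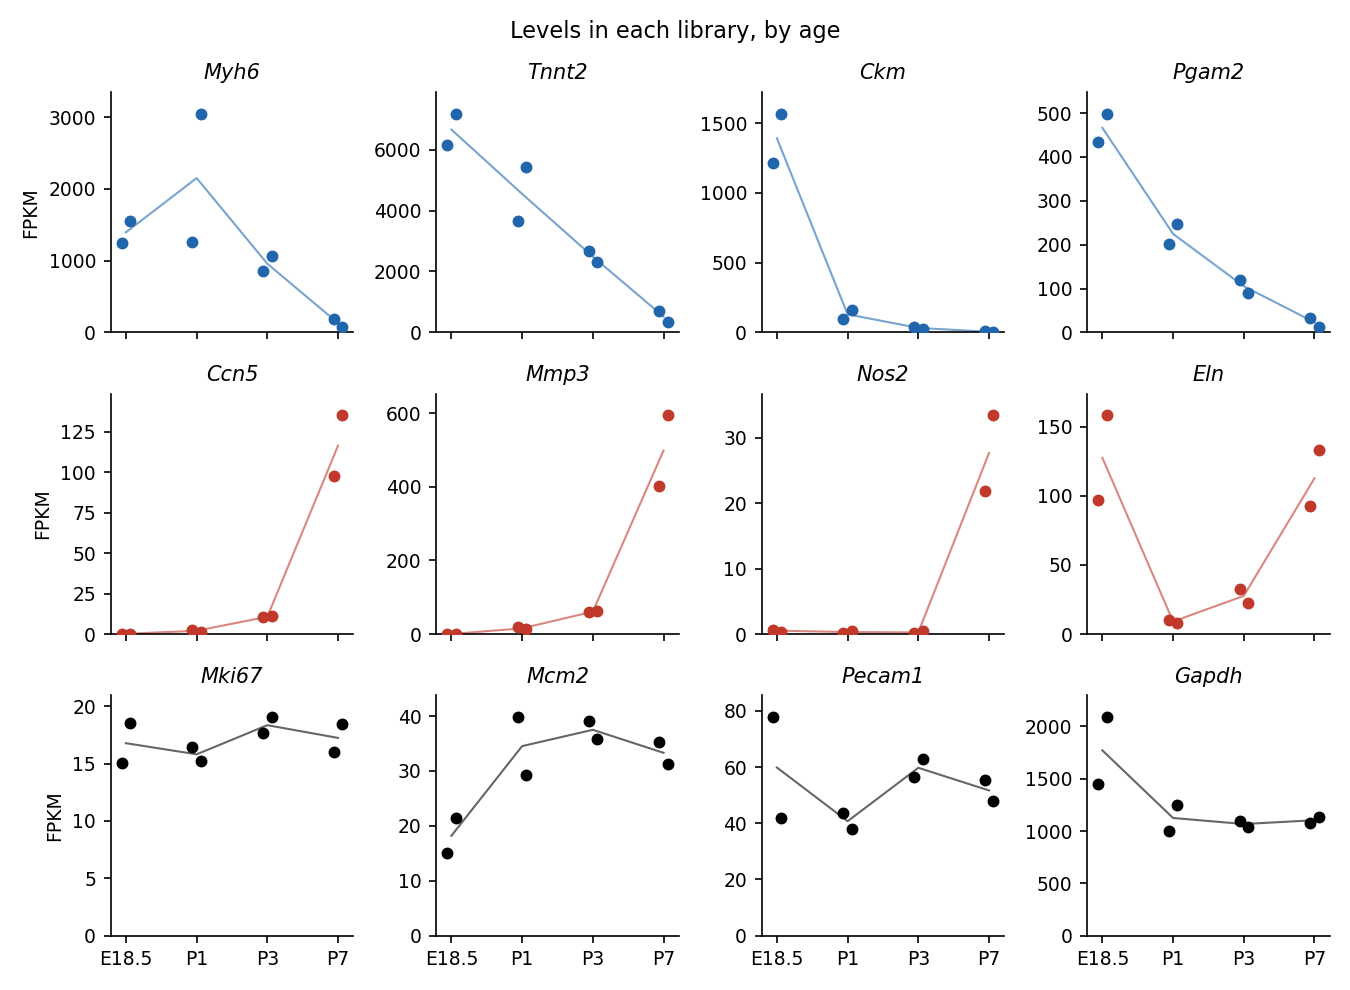
FPKM (y axes, each from 0) of 12 genes in every library at the 4 ages (x axis), with 1 point per library and a line through the means. Muscle genes (blue) fall to P7, Ccn5, Mmp3 and Nos2 (red) rise mainly after P3, Eln is high at E18.5 and again at P7, and Mki67, Mcm2, Pecam1 and Gapdh (black) show no called difference between P1 and P7.

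Chemokines, cytokines and acute phase genes were the list with the highest median (1.77), and 13 of 19 tested members were higher and none lower. Ccl2, a chemokine that attracts monocytes, had the largest gain in mean FPKM of any called gene, from 638 and 436 FPKM to 1735 and 2010 FPKM (log2 fold change 1.82 ± 0.20, adjusted p = 0.0011). Its neighbour on chromosome 11, Ccl7, went from 279 and 183 FPKM to 914 and 1121 FPKM. From a cluster on chromosome 5, 3 neutrophil-attracting chemokines rose together, Cxcl5 (182 and 103 against 763 and 1032 FPKM), Cxcl1 (113 and 75.9 against 507 and 644 FPKM) and Cxcl2 (4.78 and 4.94 against 69.3 and 103 FPKM). Cxcl10, a chemokine induced by interferon, went from 6.28 and 13.7 FPKM to 104 and 219 FPKM (log2 fold change 3.88 ± 0.39). Cytokines with lower levels rose as well, as Il6 (10.5 and 8.15 against 38.8 and 53.6 FPKM), Tnf (0.389 and 0.591 against 6.81 and 8.25 FPKM) and Csf2 (0.416 and 0.289 against 8.14 and 12.8 FPKM). Nos2 (chr11:78920787-78960254, plus strand), the inducible nitric oxide synthase, was at 0.172 and 0.432 FPKM at P1 and 21.9 and 33.4 FPKM at P7 (log2 fold change 4.44 ± 0.25, adjusted p = 0.00033). Csf1, a growth factor of macrophages, was at 205 and 138 FPKM and 251 and 238 FPKM (adjusted p = 0.19). Over the alternatives between 10 and 14 members of the list were higher.

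Several of these genes had been high before birth. Cxcl10 was at 195 and 172 FPKM at E18.5 and Cxcl2 at 62.3 and 79.9 FPKM, so that P1 and P3 were the low points. Eln, at 97.0 and 158 FPKM at E18.5, had the same course. Mmp3, by contrast, was at 0.151 and 0.0649 FPKM at E18.5, and Cxcl5 at 4.47 and 2.43 FPKM. Of the 482 higher genes 438 had a P7 mean outside the range between their E18.5 and P1 means, and of the 763 lower genes 728. Since calling required P7 to differ from P1, these counts only add that the P7 mean also lay beyond that of E18.5. The share over all genes tested was not computed.

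Further immune genes were called in smaller numbers. Of 14 tested genes of antigen presentation and complement 7 were higher (median 1.15), led by the complement factor Cfb (2.1 and 3.29 against 20.9 and 25.8 FPKM). Of 18 interferon response genes 5 were higher, Ifit3 (13 and 21.1 against 75.3 and 106 FPKM), Rsad2, Isg15, Irf1 and Mx1, but Irf7 had a log2 fold change of -0.07. Without the second P7 library 1 interferon gene and 4 genes of the antigen and complement list were higher. Ifitm3, an antiviral membrane protein, rose from 416 and 436 FPKM to 883 and 925 FPKM.

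Genes that respond to tissue dissociation were examined because digestion precedes every library. Of 18 immediate early genes 3 were higher, Junb (56.2 and 67.2 against 164 and 198 FPKM, log2 fold change 1.54 ± 0.18), Ier3 and Egr2, and the list's median was 0.32. Without the second P7 library 1 of them was higher. Fos, Jun and Atf3, with log2 fold changes of 0.23, 0.42 and -0.04, were not called. Junb was the only 1 of 12 AP1 family members that was called. At E18.5 Junb had been at 169 and 193 FPKM, near its P7 values. Among 16 heat shock genes none was higher, and the 2 lower were the muscle chaperones Hspb6 and Hspb7. Of 16 targets of the oxidative stress factor NRF2 the 2 higher were Gsta3 and Mt2, while Gstm1, a glutathione transferase, had a log2 fold change of 0.69 (adjusted p = 0.050).

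Hypoxia response genes were higher in 9 of 15 cases (median 1.10). Adm (adrenomedullin), a vasodilator peptide, rose from 79.0 and 49.0 FPKM to 268 and 330 FPKM (log2 fold change 2.24 ± 0.23), and Ndrg1 from 8.05 and 17.1 FPKM to 48.8 and 67.5 FPKM. The collagen prolyl hydroxylases P4ha1 and P4ha2, which are also enzymes of collagen synthesis, had log2 fold changes of 1.3 and 1.36. Hif1a itself was at 98.2 and 90.0 FPKM and 109 and 127 FPKM (adjusted p = 0.19), and Vegfa at 40.1 and 83.2 FPKM and 81.9 and 114 FPKM, so that its libraries overlapped. For Egln3, Bnip3 and Ndrg1 the second P1 library lay 2 or more times above the first. The count was 3 without the second P7 library and 6 without either of the first libraries of P1 and P7. Angptl4, a lipase inhibitor that hypoxia and lipids induce, was among the 15 largest rises (13.1 and 7.26 against 75.1 and 97.3 FPKM), as was Ndufa4l2, whose P1 libraries were at 0.326 and 9.26 FPKM and those of P7 at 29.2 and 45.4 FPKM (adjusted p = 0.021). Both calls were lost in at least 1 alternative.

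The other large rises belonged to no single list. Kcne4, an inhibitory potassium channel subunit, went from 1.75 and 0.591 FPKM to 21.9 and 33.7 FPKM, and Plac8 from 10.1 and 16.4 FPKM to 139 and 207 FPKM. Medag, a gene linked to fat cell development, rose from 1.65 and 2.20 FPKM to 19.4 and 28.7 FPKM, and Cygb (cytoglobin), a globin of fibroblasts and pericytes, from 0.428 and 0.386 FPKM to 8.70 and 12.4 FPKM. Among the large falls outside the contractile lists were Thbs4, a thrombospondin of muscle and tendon (34.6 and 81.9 against 5.28 and 1.43 FPKM), and Asb2, a subunit of a muscle ubiquitin ligase (71.4 and 105 against 10.2 and 3.44 FPKM). The YAP and TEAD list of 15 had 1 higher member, Vgll3, and 1 lower, Ankrd1, a stretch-responsive protein of cardiomyocytes (1331 and 1180 against 471 and 305 FPKM). Of 9 tested genes of the thyroid and glucocorticoid axis 1, Tsc22d3, was lower. Among 10 tested S100 genes S100a1, a calcium sensor of cardiomyocytes, was lower and S100a4, a fibroblast gene, was higher. Without the second P7 library the calls of Vgll3, Tsc22d3 and S100a4 were lost, without the second P1 library those of Tsc22d3 and S100a4, and without the first P7 library that of S100a4.

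Among the 10 largest falls in mean FPKM were 3 genes on chromosome 1, Gm29216, Gm10222 and Gm28439, with 4808 and 8067 FPKM for the first at P1 and 3375 and 2689 FPKM at P7, a call that was lost without the second library of either age. These are near-identical nuclear copies of mitochondrial sequence, and with every mitochondrial gene listed at 0 their values are uncertain. Long non-coding RNAs made up 3.98% of the genes tested, 1.87% of those higher (9 genes) and 6.95% of those lower (53 genes). The median length of the longest transcript was 3135 bases for all genes tested, 2808.5 bases for higher and 3023 bases for lower genes.

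Levels at P3 were set beside those of P1 and P7 for the called genes. For 444 of 482 higher genes (92.1%) and 755 of 763 lower genes (99.0%) the P3 mean lay between the P1 and P7 means. These genes were called for a gap between P1 and P7, which favours a P3 mean inside it. The share over all genes tested was not computed. By P3 the median higher gene had covered 38.1% and the median lower gene 36.7% of its change on the log2 scale. Cardiomyocyte markers summed to 11227 and 9182 FPKM at P3, between the P1 and P7 values, and to 33789 and 43506 FPKM at E18.5. Among the 15 largest rises the P3 mean lay below the P1 mean in 5 genes, Nos2 (0.0956 and 0.396 FPKM at P3), Cxcl10, Cxcl2, Csf2 and Ndufa4l2.

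The share of a gene's FPKM that each of its transcripts took was examined in the 3073 genes with at least 20 FPKM in all 4 libraries, as a description without a test. Of their 19029 transcripts 258, in 172 genes, changed by more than 20 percentage points without overlap of the libraries. In Fhl2, a LIM protein of heart and other tissues, transcript ENSMUST00000008280.13 took 21.4 and 18.9% of the gene's FPKM at P1 and 79.3 and 89.4% at P7, and ENSMUST00000185893.1, which starts further upstream, took 78.4 and 80.8% and then 20.3 and 10.5%. This switch stood beside a fall of the whole gene, from 366 and 579 FPKM to 105 and 99.1 FPKM. In Acly, the enzyme that makes cytosolic acetyl-CoA, transcript ENSMUST00000165111.7 went from 15.8 and 26.5% to 89.6 and 89.0%. The largest loss was in Bak1, a pore-forming protein of apoptosis, where ENSMUST00000025034.11 went from 74.9 and 74.9% to 0.595 and 0.12%, with another transcript of nearly the same extent gaining most of it. Such shares depend on how the assembler divided reads between overlapping models.

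Promoter windows from 250 bases before to 50 bases after the start of each gene's most abundant transcript were searched on both strands for 6 motifs. The windows could be cut for 13975 of the 13979 genes. AP1 (TGANTCA), the site of Fos and Jun dimers, was found in 12.5% of the windows of higher genes, 5.24% of those of lower genes and 5.12% of all windows. For NF-kappaB, the factor behind many cytokine genes, the shares were 11, 4.85 and 5.19%, and for MEF2, a muscle factor, 1.66, 7.08 and 2.38%. The CArG box, which serum response factor binds, was in 2.29, 2.62 and 1.38%. MCAT (CATTCC) was in 14.8, 14.3 and 12.1% and the hypoxia core ACGTG in 23.7, 21.4 and 24.2%. The GC content of the windows had medians of 57.0% in higher, 59.0% in lower and 59.7% in all genes. A match is a description of the sequence and does not show that a factor binds.

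**Figure D5:**
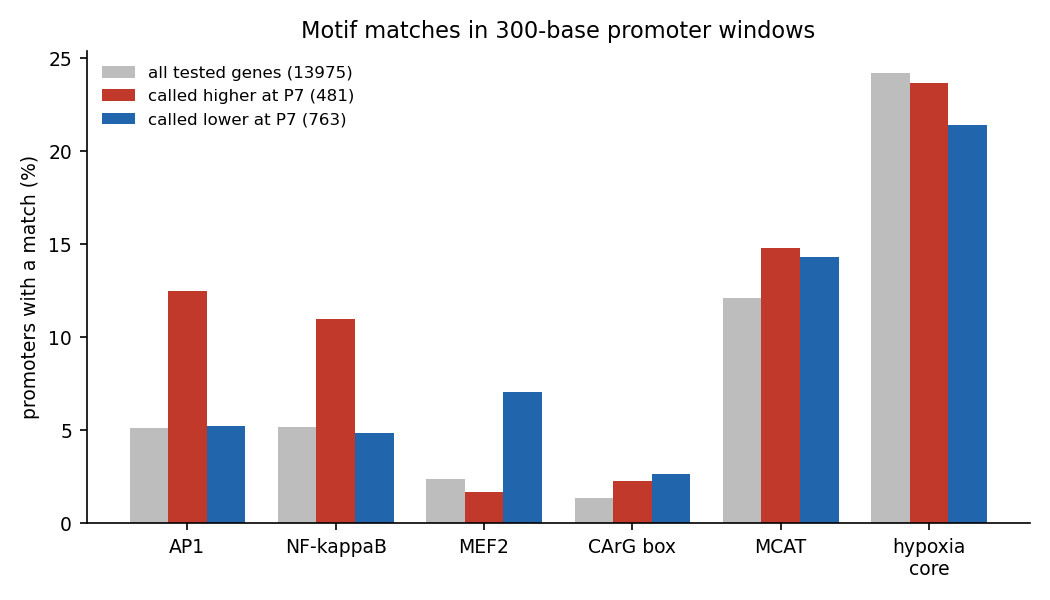
Percentage of promoter windows (y axis) that hold a match to each of 6 motifs (x axis), for all 13975 windows (grey), 481 windows of genes called higher (red) and 763 of genes called lower (blue). AP1 and NF-kappaB bars are highest for higher genes and the MEF2 bar for lower genes, while the MCAT and hypoxia core bars differ little.

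The windows of the named risers Mmp3, Ccl7, Cxcl10, Ifitm3 and Cygb held an AP1 match, shown in capitals below within 30 bases on either side, on the strand of the gene and in GRCm38. The matches ended 40 bases before the start for Mmp3, 63 for Ccl7 and 75 for Cxcl10. None of the shown stretches lies in an exon of the annotation.
Mmp3, chr9:7445746-7445812, plus strand: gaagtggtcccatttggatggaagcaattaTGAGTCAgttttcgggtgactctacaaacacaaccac
Ccl7, chr11:82045613-82045679, plus strand: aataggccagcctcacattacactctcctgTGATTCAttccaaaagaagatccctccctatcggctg
Cxcl10, chr5:92348927-92348993, minus strand: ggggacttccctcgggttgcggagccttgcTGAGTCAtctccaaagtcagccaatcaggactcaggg
Ifitm3, chr7:141010813-141010879, minus strand: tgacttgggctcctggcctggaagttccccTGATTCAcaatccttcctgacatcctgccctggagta
Cygb, chr11:116654479-116654545, minus strand: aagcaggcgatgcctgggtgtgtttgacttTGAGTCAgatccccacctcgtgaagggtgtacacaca

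NF-kappaB matches were in 31.6% of the 19 windows of the chemokine and cytokine list (6 windows). The 3 neighbouring chemokine genes Cxcl1, Cxcl2 and Cxcl5 are shown because their capitals spell the same 10 bases at 58, 62 and 99 bases before the start, and Nos2 because of its large rise.
Cxcl1, chr5:90891144-90891213, plus strand: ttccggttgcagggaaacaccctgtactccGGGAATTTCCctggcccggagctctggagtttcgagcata
Cxcl2, chr5:90903772-90903841, plus strand: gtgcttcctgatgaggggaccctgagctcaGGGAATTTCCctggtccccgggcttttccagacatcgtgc
Cxcl5, chr5:90759240-90759309, plus strand: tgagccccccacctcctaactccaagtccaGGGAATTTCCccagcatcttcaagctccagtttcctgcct
Nos2, chr11:78920711-78920780, plus strand: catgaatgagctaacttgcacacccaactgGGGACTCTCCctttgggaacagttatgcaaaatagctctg

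Among the genes that fell, some windows of muscle genes held matches to the CArG box or to MEF2. The CArG box was in 16.7% of the 18 windows of cardiomyocyte markers (3 windows) against 1.38% of all windows, and in the same 18 windows MCAT was in 33.3% and MEF2 in 5.56% (1 window). Actc1, Myl3 and Hopx are shown for the CArG box, and Myl2 and Synpo2l for MEF2, with the match in capitals.
Actc1, chr2:114052888-114052952, minus strand: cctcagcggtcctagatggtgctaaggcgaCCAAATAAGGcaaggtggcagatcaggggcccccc
Myl3, chr9:110763563-110763632, plus strand: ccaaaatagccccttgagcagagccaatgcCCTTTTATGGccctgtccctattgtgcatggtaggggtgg
Hopx, chr5:77115167-77115236, minus strand: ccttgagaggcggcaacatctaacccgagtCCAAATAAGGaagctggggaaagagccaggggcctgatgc
Myl2, chr5:122100895-122100950, plus strand: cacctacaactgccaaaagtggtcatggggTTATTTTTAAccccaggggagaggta
Synpo2l, chr14:20664679-20664748, minus strand: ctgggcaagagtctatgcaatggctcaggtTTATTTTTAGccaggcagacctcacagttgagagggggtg

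The hypoxia core was in 60.0% of the 15 windows of the hypoxia list (9 windows), whose median GC content of 68.0% was above that of all windows. Ankrd37 and P4ha1, both called higher except without the second P7 library, are shown with the core in capitals, for P4ha1 on the other strand.
Ankrd37, chr8:46000057-46000117, minus strand: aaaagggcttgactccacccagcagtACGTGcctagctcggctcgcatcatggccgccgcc
P4ha1, chr10:59323250-59323295, plus strand: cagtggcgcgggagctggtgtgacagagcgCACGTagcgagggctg

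Accessible chromatin at the promoters of these genes was counted in the authors' peak lists of the same ages from ATAC-seq, an assay of open chromatin, with 2 libraries per age. The lists differed in length, with 29281 and 19753 peaks at P1 and 49113 and 35898 at P7, and in mean peak width, with 214 and 230 bp against 430 and 361 bp, so every count is relative to that of all genes. A peak within 2.5 kb of a start was present in 43.4 and 18.0% of higher genes in the P1 lists and in 74.3 and 72.4% in the P7 lists, beside 69.2 and 43.0% and then 86.5 and 85.5% of all genes tested. Of the higher genes 120 (24.9%) had a peak in both P7 lists and in neither P1 list, against 14.5% of all genes and 8.78% of lower genes. With all lists shortened to the 19753 peaks of highest score these shares were 8.71, 7.88 and 4.85%. Only genes with no peak at P1 could enter these counts, and higher genes had a peak at P1 less often. The shares therefore do not compare how often promoters without a peak at P1 gained one.

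Single genes differed in whether a promoter peak accompanied the change in RNA. Ccn5, Eln and Col3a1 had a promoter peak in both P7 lists and in neither P1 list. Their fold enrichments over the local background were 4.88 and 4.68, 4.19 and 3.65, and 4.31 and 3.85. With all lists shortened to the 19753 peaks of highest score, Ccn5 kept a peak in the second P7 list only. Eln and Col3a1 then kept none. Trim72, whose RNA fell, had a promoter peak in both P1 lists (6.69 and 3.61) and in neither P7 list. The opposite held for Pfkm (4.825 and 6.536) and Mef2c (6.095 and 4.735). Their RNA fell too, but they had a peak in both P7 lists and in neither P1 list. In the shortened lists Mef2c kept both peaks and Pfkm only that of the second P7 list. Mmp3 and Cxcl2 had none in any of the 4 lists. Ckm, Myh6 and Tnnt2 had a peak in all 4 lists although their RNA fell, at fold enrichments of 6.08, 3.75, 3.80 and 3.53 for Tnnt2 in order of P1 and P7. Of the 18 cardiomyocyte markers 16 and 7 had a promoter peak at P1 and 8 and 14 at P7, so the libraries of the 2 ages overlapped. All 18 collagen genes had one in the first P7 list, 13 in the second, and 8 and 1 at P1. Of all genes tested 69.2 and 43.0% had one at P1 and 86.5 and 85.5% at P7. With equal numbers of top peaks 6 and 1 collagen genes had one at P1 and 5 and 6 at P7. For the cardiomyocyte markers these counts were 15 and 7 at P1 and 1 and 8 at P7. The shares of all genes were then 60 and 43% at P1 and 63.1 and 75.4% at P7.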

How the data were processed

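RNA-seq had been run on cardiomyocytes of E18.5, P1, P3 and P7 mice, with 2 libraries per age, and the groups came from the labels. The authors had selected poly-A RNA, aligned 150-base paired reads to mm10 with HISAT2 2.1.0 and estimated transcripts of GENCODE M21 with StringTie 1.3.5. The files as deposited hold FPKM, TPM and coverage per transcript and no counts, so the depth was estimated from coverage and the length of each transcript, and the authors' edgeR test on counts was not repeated. Strand was not stated, so overlapping antisense genes cannot be told apart. No interval for counting error was computed, and precision is given by the spread of 2 libraries.

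Gene FPKM was the sum over the transcripts of a gene ID. Genes with at least 1 FPKM in 2 or more of 8 libraries were tested as log2(FPKM + 1) with limma 3.58.1 in R 4.3.3 (lmFit, contrasts.fit and eBayes with trend, two-sided) in 1 fit of all 8 libraries with 4 residual degrees of freedom per gene, with Benjamini-Hochberg adjustment. Fold changes are on the log2(FPKM + 1) scale, which understates those of low genes. Calls needed an adjusted p below 0.05 and a change of more than 1 on the log2 scale. An exact permutation test of 2 against 2 libraries could not pass this threshold and was not used. Gene lists were described by counts and medians. The members and lists were chosen with earlier results of these data known. Genes are named for their place among the 15 largest rises or falls in log2 level or the 10 largest in mean FPKM, for being named in the study, or as the largest, most abundant or so named members of a list. Others were named after their values were seen. Some genes that this rule would name are not reported here.

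For ATAC-seq the authors called peaks per library with MACS2 after Bowtie2 alignment. The deposited lists hold a score, a fold enrichment ratio and −log10 p and q values per peak. The intervals, score and fold enrichment were used, and the q value only to order peaks of equal score. Promoter sequence came from the RefSeq GRCm38 genome. The alternatives were another pseudocount, other filters, TPM, size factors, limma-voom, a replicate block, P1 and P7 alone, no fold threshold and each library left out in turn.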

Additional observations from a re-analysis of the deposited data

How the results depend on the processing

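The fit reported here called 1245 genes, and the alternatives that kept all libraries and the fold threshold called between 854 and 1639. With a pseudocount of 0.1 there were 1597, with no expression filter 968, with a mean of at least 5 FPKM 854 (302 higher and 552 lower), with TPM 1484, with size factors 1211 and with limma-voom on estimated reads 1639. Without the fold threshold there were 2546 (1146 higher and 1400 lower). Leaving out each library in turn gave 859 to 1492 genes, 329 to 531 higher and 530 to 961 lower, and the lowest count was that without the second P7 library. The numbers do not pair the libraries, since deviations of libraries with the same number correlated between -0.10 and 0.17. With a replicate block 1247 genes were called, 483 higher and 764 lower, 1235 of them shared with the fit without it. Size factors moved the median of all genes to 0.011 and TPM to 0.018. Of 234 called genes that were picked by the naming rule or were members of a list, 181 stayed called under every setting that tested them. Reversals concerned genes that were not called. With a library left out, log2 fold changes ranged from -0.33 to 0.073 for Adgrf5, -0.16 to 0.10 for Stmn1, -0.13 to 0.10 for Hmgb2 and -0.23 to 0.15 for Atf3, and Hmgb2 was at 0.0095 with TPM and 0.0034 with size factors. With equal numbers of top peaks the shares of promoters with a peak at P7 only were 7.88% of all, 8.71% of higher and 4.85% of lower genes. The cause of these changes was not tested.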

Other observations

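The genes in these paragraphs were chosen after their values were seen, and they are given as values. Muscle genes outside the lists were lower as well. The splicing factors Rbm20, which controls titin splicing, Rbm24 and Rbm38 had log2 fold changes of -3.24, -3.29 and -3.29, and Rbm20 went from 21.1 and 32.5 FPKM at P1 to 3.26 and 0.953 FPKM at P7. Ubiquitin ligase genes of striated muscle fell too, with Trim55 at 55.3 and 87.4 FPKM and then 7.67 and 2.94 FPKM, and Trim63 at 65.5 and 90.7 FPKM and then 14.6 and 5.57 FPKM. Of the intercalated disc and cell surface, Pkp2 and Dsp, both of the desmosome, had log2 fold changes of -2.68 and -2.54, Bves and Popdc2 of -3.06 and -3.24, and the caveolin Cav3 of -2.85. The kinases Mylk3, Tnni3k and Alpk3 had -3.57, -3.40 and -2.39, and the methyltransferase Smyd1 -3.22. Mhrt, which lies antisense to Myh7, had -3.47, a value that is uncertain because strand was not stated.

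Further inflammatory genes were higher. Ptx3, a soluble pattern recognition protein, rose from 85.5 and 32.9 FPKM to 367 and 483 FPKM, Ch25h, which makes an oxysterol, from 34.1 and 26.8 FPKM to 136 and 169 FPKM, and the chemokine Ccl5 from 0.781 and 1.29 FPKM to 8.06 and 10.1 FPKM. Acod1, the enzyme that makes itaconate, went from 1.12 and 1.56 FPKM to 9.49 and 9.32 FPKM. Genes linked to hypoxia outside the list rose, as Ddit4 (19.8 and 20.7 against 86.3 and 113 FPKM), Hilpda (9.14 and 8.24 against 46.1 and 82.4 FPKM) and Pgf (6.82 and 4.63 against 32.9 and 41.9 FPKM). Fibroblast genes outside the lists were higher, including Frzb, a secreted Wnt antagonist (4.44 and 3.41 against 27.9 and 43.6 FPKM), Ptn (3.77 and 2.94 against 23.8 and 38.7 FPKM) and Aspn, a small proteoglycan, which was at 0.0596 and 0.0685 FPKM at P1, 0.405 and 0.404 FPKM at P3 and 3.27 and 5.05 FPKM at P7.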
